A study of Mus musculus with 20 samples.

Results

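The stefins and cystatins are small proteins that sit in the active site cleft of papain-like cysteine proteases and block it. A set of 9 of their genes were chosen by name from the table of normalized read counts: the stefin A genes Stfa1, Stfa2, Stfa3, Stfa2l1, BC100530 and BC117090, the stefin B gene Cstb, and the secreted cystatins Cst3 and Cst6. These are 9 of the 53380 genes in the table, and 7 of them passed the filter used for fits across genes, a normalized count of at least 10 in at least 3 libraries (17204 genes passed). The list had been drawn up with earlier results of these libraries known, so the levels and differences of its members are given as a description, without p-values.

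Stefins lack a signal peptide and act inside the cell, whereas cystatins of the second type are secreted. In mice the stefin A genes lie side by side as a recent cluster of related copies, where humans have a single gene, CSTA. Cystatin A is a component of the cornified envelope, the protein shell that transglutaminases cross-link beneath the plasma membrane of keratinocytes, and the mouse stefin A genes are also known from neutrophils and other myeloid cells. Stefin B is made in most cells. Cystatin C (Cst3) is a general secreted inhibitor of lysosomal cathepsins, and cystatin M/E (Cst6) restrains legumain and the cathepsins L and V during cornification and hair formation.

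The libraries came from mouse dorsal epidermis sorted by flow cytometry into 5 populations. According to the methods of the study, 4 of them were taken from wild-type C57BL/6J mice: integrin-α6+Sca1+ keratinocytes with high Thy1 (Thy1hi, 4 libraries) or without it (Thy1-, 4 libraries), CD34+Sca1- hair follicle stem cells (HFSCs, 4 libraries), and α6-Sca1low Thy1+ dendritic epidermal T cells (DETCs, 5 libraries). The fifth was YFP+ keratinocytes (3 libraries) from Thy1-CreERT2;R26EYFP mice, in which tamoxifen-activated Cre driven by a Thy1 promoter switches on YFP. The same transgene carries a separate EYFP under a second Thy1 promoter, which the study did not detect in epidermis. In the study's methods the strain name of the Thy1-CreERT2 line holds SJL beside B6, unlike the C57BL/6J wild type. Genotype, strain background, tamoxifen induction and selection for YFP all separate these 3 libraries from the Thy1hi libraries and cannot be told apart. Libraries were also made in batches with different kits, and the batch of each library is not given in the sources used here. Batch and kit may therefore separate YFP+ from Thy1hi libraries as well, which was not tested. The study states that its mice were 8 weeks old. The sample labels instead give the genotype Thy1.2CreERT2-Rosa26-EYFP and no treatment for all samples. Their ages rise steadily from sample to sample, from 8 to 27 weeks, and so run from one population to the next. They also give a Sca1-negative cell type for the YFP+ cells whose titles say positive. How many mice entered each library is unclear, so the spread between libraries may be partly technical.

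Reads on genes ranged from 7781256 to 12982393 per library, with 13.1% to 41.5% taken up by Rn45s, a gene of ribosomal RNA. T cell and HFSC markers were where the labels put them, while Thy1, Sca1 and YFP themselves were not among the markers summed. The summed level of 7 T cell markers was 19486 to 40345 in the DETC libraries and at most 429 elsewhere. That of 7 HFSC markers was 16715 to 22143 in HFSCs. YFP+ replicate 3 also had 12170 of the HFSC markers, above the other YFP+ libraries, but most of this was Postn, at 11026. The other HFSC markers were lower in every YFP+ library than in every HFSC library. Cd34, for example, was at most 114 in YFP+ cells and at least 1600 in HFSCs. The DETC libraries still held 11941 to 56893 of 6 basal keratinocyte markers, with the lowest value in DETC replicate a. HFSC replicate 4 had the lowest share of Rn45s and 156 of 10 Langerhans cell and macrophage markers, against 2744 to 5655 in the other HFSC libraries. The values of Thy1- replicate 4 stood in the wrong row for 3212 genes, BC100530 and BC117090 among them, and were put back before use.

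The stefin A members occupied 299 kb of chromosome 16 in GRCm38 (mm10), from Stfa2l1 at chr16:36156811-36161948 to Stfa3 at chr16:36450537-36455392. Between them lay Stfa1 (chr16:36277148-36285371), BC117090 (chr16:36321665-36334332), BC100530 (chr16:36359382-36367748) and Stfa2 (chr16:36403946-36408363). The table listed 25 genes in this stretch, and of those that are no members only Gm5416, described further on, was above 4.42 in any library. Cstb lies at chr10:78425669-78427622, Cst3 at chr2:148871722-148875692 and Cst6 at chr19:5344705-5349574.

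The promoters of 5 stefin A members are shown because these neighbours are related in sequence and have very different levels. Their promoters were between 81.4% (Stfa1 and Stfa2) and 96.4% (Stfa1 and BC100530) identical. Each runs from 250 bases before to 50 bases after the RefSeq transcription start (GRCm38.p6), 5′ to 3′ on the gene's strand, and BC100530 was found under its RefSeq name Cstdc5. Capitals mark matches to a C/EBP-type motif (TTGCNNAA) or an AP-1 motif (TGANTCA) on either strand.
BC100530 (chr16:36367521-36367820, minus strand): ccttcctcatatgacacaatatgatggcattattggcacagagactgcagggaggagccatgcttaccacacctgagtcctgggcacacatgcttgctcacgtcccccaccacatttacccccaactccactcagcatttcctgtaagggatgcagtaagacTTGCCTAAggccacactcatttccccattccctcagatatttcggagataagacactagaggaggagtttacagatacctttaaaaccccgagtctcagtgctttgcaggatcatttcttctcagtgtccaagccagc
Stfa1 (chr16:36276898-36277197, plus strand): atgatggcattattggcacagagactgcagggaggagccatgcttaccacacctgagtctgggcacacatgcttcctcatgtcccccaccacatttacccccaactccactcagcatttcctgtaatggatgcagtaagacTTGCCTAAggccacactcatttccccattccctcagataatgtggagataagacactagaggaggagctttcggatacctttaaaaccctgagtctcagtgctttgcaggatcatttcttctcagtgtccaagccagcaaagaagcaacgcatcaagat
Stfa3 (chr16:36455343-36455642, minus strand): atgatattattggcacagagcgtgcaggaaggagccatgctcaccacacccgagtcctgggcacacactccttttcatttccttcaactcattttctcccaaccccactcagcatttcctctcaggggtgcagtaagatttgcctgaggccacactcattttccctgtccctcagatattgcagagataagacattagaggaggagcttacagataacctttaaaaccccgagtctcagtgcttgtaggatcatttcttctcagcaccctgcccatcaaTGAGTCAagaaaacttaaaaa
Stfa2 (chr16:36408314-36408613, minus strand): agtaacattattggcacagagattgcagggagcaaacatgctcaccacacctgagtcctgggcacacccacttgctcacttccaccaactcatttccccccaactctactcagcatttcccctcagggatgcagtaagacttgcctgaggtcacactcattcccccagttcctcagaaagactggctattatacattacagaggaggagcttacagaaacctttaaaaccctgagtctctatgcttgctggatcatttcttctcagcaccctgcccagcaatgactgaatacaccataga
Stfa2l1 (chr16:36156561-36156860, plus strand): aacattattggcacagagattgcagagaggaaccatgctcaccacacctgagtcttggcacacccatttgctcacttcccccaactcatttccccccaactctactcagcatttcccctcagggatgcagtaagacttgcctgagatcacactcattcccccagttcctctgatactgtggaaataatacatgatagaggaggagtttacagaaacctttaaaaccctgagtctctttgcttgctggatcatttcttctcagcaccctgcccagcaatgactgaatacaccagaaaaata

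The promoters of BC100530 and Stfa1 were 96.4% identical over 279 aligned bases, and each held the C/EBP-type motif once, starting 88 and 109 bases before the transcription start. Stfa3 held the AP-1 motif once, starting at base 30 of the transcribed part. The promoters of Stfa2 and Stfa2l1 were 92.9% identical over 296 aligned bases and held neither motif. Of 32851 promoters of the same length, 10.8% held the C/EBP-type motif and 7.81% the AP-1 motif. The TATA box (TATAAA, in 13.6% of all promoters), a grainyhead-like motif (AACCNGTT, in 2.09%) and an interferon response element (GAAA, any 2 bases and GAAA, in 3.44%) had no match in these windows or in that of Cst3, the sixth member with an entry. These matches are letters in a window and not measured binding.

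Among the transcripts, BC100530 and Stfa1 were 97.1% identical over 617 aligned bases, BC100530 and BC117090 95.4% over 387, and Stfa2 and Stfa2l1 96.5% over 367. Of the 100-base windows of the BC100530 transcript, 22.3% also occurred in a transcript of Stfa1, BC117090 or Gm15845, compared with 5.60% of those of Stfa1 and 13.5% of those of BC117090. Stfa2, Stfa2l1, Stfa3, Cstb, Cst3 and Cst6 shared no such window with another gene. How reads with several matches were counted is not given in the sources used here, so the split between BC100530, Stfa1 and BC117090 is less certain than their sum.

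The highest stefin A levels were those of the YFP+ keratinocytes. BC100530 had normalized counts of 568, 499 and 680 in the 3 YFP+ libraries, and 92.7, 46.1, 82.9 and 33.0 in the 4 Thy1hi libraries. Every YFP+ library was above every Thy1hi library, and the means were 582 ± 91.0 (SD, n = 3) and 63.7 ± 28.7 (SD, n = 4). The fitted log2 fold change on the log2(normalized count + 1) scale was 3.28 (SE 0.89).

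**Figure D1:**
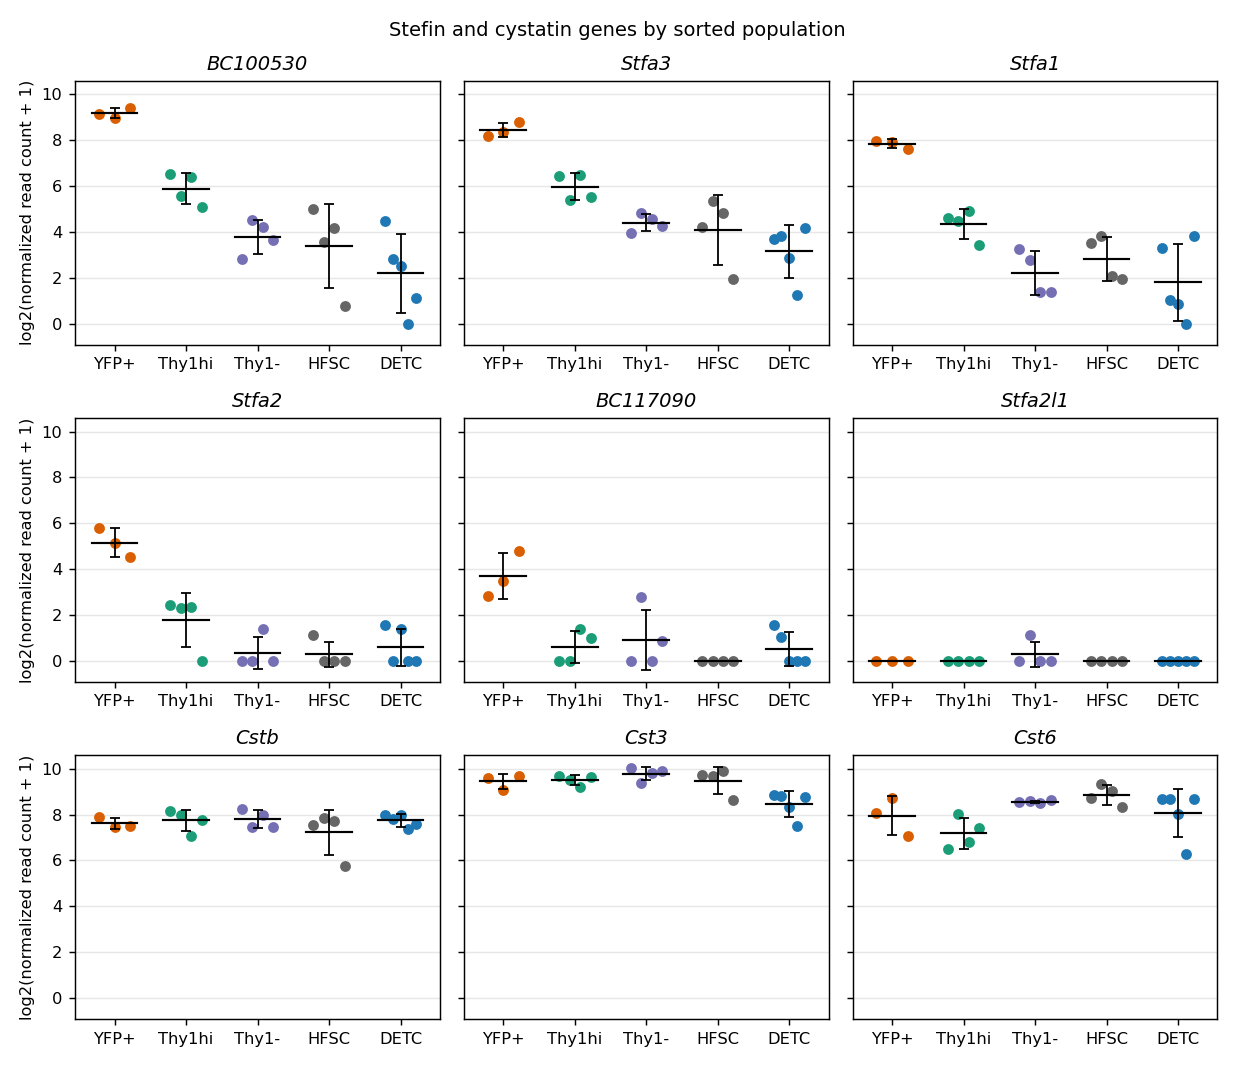
Normalized read counts of the 9 genes as log2(count + 1), 1 point per library, in YFP+ (3), Thy1hi (4), Thy1- (4), HFSC (4) and DETC (5) libraries; horizontal lines are means and bars are SDs of the log2 values. BC100530, Stfa3, Stfa1 and Stfa2 stood apart in the YFP+ libraries, while Cstb overlapped in all 5 populations and Stfa2l1 was at 0 in all but 1 library.

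Stfa3 was at 290, 326 and 438 in YFP+ cells and at 87.2, 40.8, 89.4 and 45.6 in Thy1hi cells, again without overlap (log2 fold change 2.47, SE 0.67). Stfa1 was at 251, 245 and 198 in YFP+ cells and at 23.2, 21.1, 29.3 and 9.70 in Thy1hi cells (log2 fold change 3.5, SE 0.79). Thus the 3 most abundant stefin A genes were 5.34 to 11.1 times as high in the YFP+ mean, on the ratio of means. Stfa2 was at 53.8, 34.1 and 21.8 in YFP+ cells and at 4.42, 3.95, 4.06 and 0 in Thy1hi cells, the last from at most 5 reads per library. Only the 3 YFP+ libraries reached 10 for Stfa2, so this gene entered the fit through the group in which it was high and had to differ there (log2 fold change 3.37, SE 0.71).

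The 2 stefin A genes outside the fit behaved differently from each other. BC117090 was at 5.98, 10.1 and 26.8 in the YFP+ libraries, from 6 to 27 reads, and at 0, 0, 1.63 and 0.97 in the Thy1hi libraries. Thy1- replicate 2, at 5.79 from 5 reads, came close to the lowest YFP+ value. Stfa2l1 had 1 read in all 20 libraries together, in Thy1- replicate 2, although its promoter nearly matches that of Stfa2. At this depth 3 reads correspond to a normalized count of at most 4.12 in any library, so levels of Stfa2l1 below that were not detectable.

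Added together, the 6 stefin A genes reached 1169, 1114 and 1364 in the YFP+ libraries and 207.5, 112, 207.3 and 89.2 in the Thy1hi libraries. BC100530 made up 44.8% to 49.8% of this sum in YFP+ cells and 37.0% to 44.7% in Thy1hi cells. Stfa1 had 14.5% to 22.0% in YFP+ and 10.9% to 18.8% in Thy1hi cells, and Stfa3 had 24.8% to 32.1% and 36.5% to 51.1%. The share of Stfa3 was thus lower in each YFP+ library than in each Thy1hi library. Levels of different genes can be roughly compared per kilobase of exon, over all annotated exons of a gene. In YFP+ cells Stfa3 was at 853 ± 187 (SD, n = 3), BC100530 at 737 ± 115, Stfa1 at 326 ± 40.7, Stfa2 at 77.6 ± 34.3 and BC117090 at 36.9 ± 28.4. The order of Stfa3 and BC100530 depends on the length used. BC100530 has 790 bases of exon but a transcript of 619 bases, whereas Stfa3 has 412 by either measure.

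**Figure D2:**
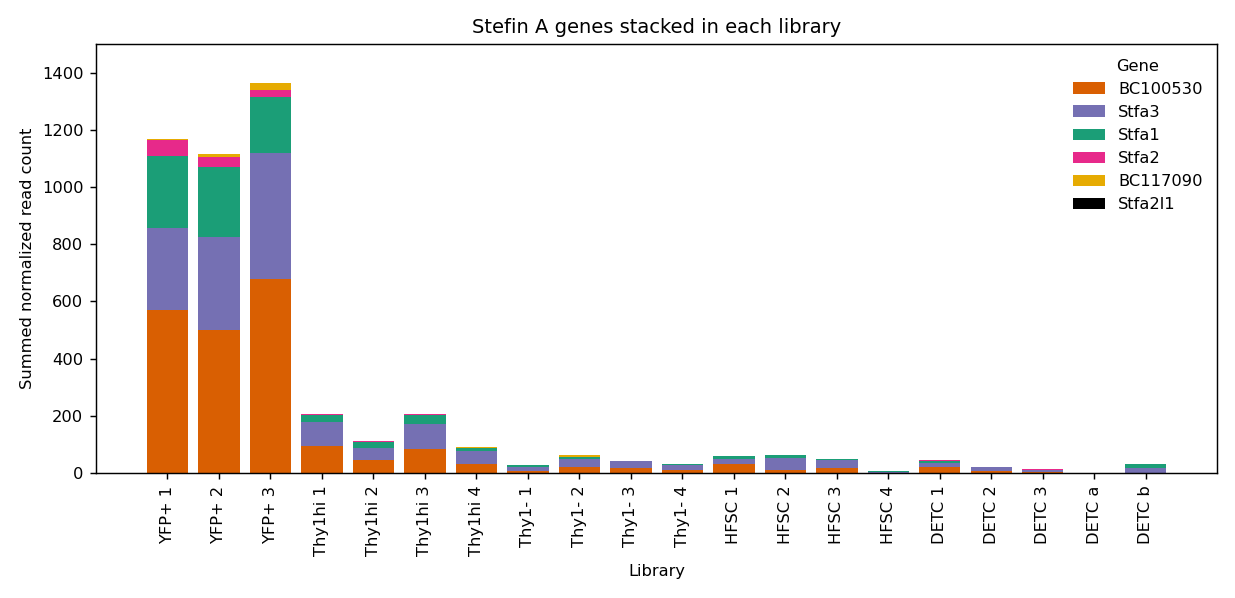
Summed normalized read count of the stefin A genes in each of the 20 libraries, with 1 colour per gene. The YFP+ bars reach 1114 to 1364, the Thy1hi bars 89.2 to 207.5 and all other bars at most 64.1.

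The fits across all genes give the frame for these differences. In YFP+ against Thy1hi cells, limma called 2 of 17204 genes (0.0116%) at an adjusted p under 0.05, and none of the 7 members was called. At an unadjusted p under 0.05, 9.07% of all genes passed, and 4 of the 7 members did (Stfa1, Stfa2, Stfa3 and BC100530), Stfa2 by way of the filter. Of all genes tested, 4.92% had every YFP+ library above every Thy1hi library, as Stfa1, Stfa3 and BC100530 had, and 5.55% had every YFP+ library below. The number of members called depended on the model. It was 0 with edgeR on recovered reads (0.0116% of all genes called), 3 with DESeq2 (BC100530, Stfa1 and Stfa3, beside 0.593% of all genes), 3 when only these 2 populations entered the limma fit (0.093%), and 4 with a pseudocount of 10 (0.145%), Stfa2 among them.

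Markers of other cells were summed beside these values. Of 12 neutrophil markers, 9 stayed under 10 in all YFP+ libraries, including Ly6g, Retnlg, Ngp, Camp, Ltf, Elane and Mpo, and the sum of the 12 was 81.7 to 126 in YFP+ cells and 48.5 to 117 in Thy1hi cells. The other 3 were Cxcr2, at 39.9 to 84.2 in YFP+ and 11.6 to 47.4 in Thy1hi cells, Mmp9, at 8.92 to 63.5 and 6.50 to 27.2, and Hdc, at 6.94 to 14.9 and 2.91 to 15.8. The 7 T cell markers summed to 119 to 212 in YFP+ and 234 to 429 in Thy1hi cells, without overlap, and the 7 fibroblast and endothelial markers to 46.6 to 236 and 209.7 to 1958. The sum of 10 Langerhans cell and macrophage markers was 675 to 1280 in YFP+ and 565 to 1388 in Thy1hi cells. The 15 differentiated keratinocyte markers ranged from 22007 in YFP+ replicate 3 to 68860 in YFP+ replicate 1, against 11953 to 35910 in Thy1hi cells. The part of these cell types in the stefin A level of YFP+ libraries was not tested. In sorted populations such as these, fewer cells of a type and less RNA per cell cannot be told apart.

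**Figure D3:**
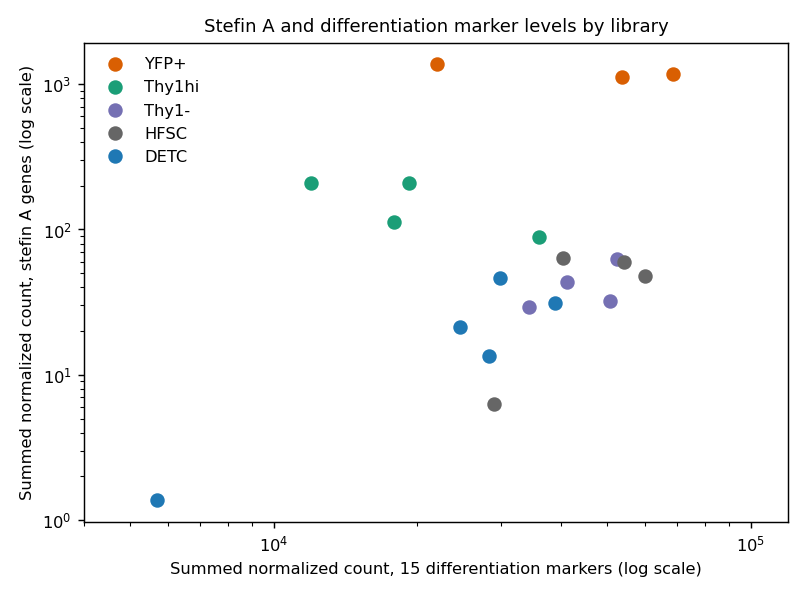
Summed normalized count of the stefin A genes (vertical, log scale) against that of 15 differentiation markers (horizontal, log scale), 1 point per library coloured by population. The YFP+ libraries lie between 1114 and 1364 on the vertical axis and between 22007 and 68860 on the horizontal axis.

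Across the populations, BC100530, Stfa3 and the stefin A sum followed the same order of means, YFP+, Thy1hi, HFSC, Thy1- and DETC. For these 3 measures the YFP+ libraries were apart from the Thy1hi libraries and those from the HFSC libraries, while HFSC, Thy1- and DETC libraries overlapped with their neighbours. Stfa1 had the same first 3 places, but its Thy1hi libraries overlapped with those of HFSCs. The sum was 1216 ± 132 (SD, n = 3) in YFP+, 154 ± 62.4 (n = 4) in Thy1hi, 44.6 ± 26.4 (n = 4) in HFSC, 41.8 ± 15.1 (n = 4) in Thy1- and 22.7 ± 17.0 (n = 5) in DETC libraries. Over all 20 libraries the log2 values of Stfa3 and BC100530 had a Pearson r of 0.946, those of Stfa1 and Stfa3 0.903, and those of Stfa1 and BC100530 0.865. These correlations share the libraries and the contrast of the YFP+ group, and in the case of Stfa1 and BC100530 also stretches of sequence.

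Thy1hi and Thy1- keratinocytes also stood apart in BC100530, Stfa1 and Stfa3. BC100530 was at 92.7, 46.1, 82.9 and 33.0 in Thy1hi replicates 1 to 4 and at 6.08, 22.0, 17.4 and 11.5 in the Thy1- replicates of the same numbers. All Thy1hi libraries were above all Thy1- libraries, and the 4 same-numbered differences ran from 1.04 to 3.73 on the log2 scale (fitted log2 fold change 2.10, SE 0.82). Stfa1 was at 23.2, 21.1, 29.3 and 9.70 in Thy1hi and at 8.51, 5.79, 1.58 and 1.64 in Thy1- cells (log2 fold change 2.15, SE 0.73), and Stfa3 at 14.6, 27.8, 22.9 and 18.0 in Thy1- cells (log2 fold change 1.56, SE 0.62). Neither gene overlapped between the populations. For Stfa1, the Thy1- values rest on 2 to 7 reads. Stfa2 had at most 5 reads in any Thy1hi library and at most 2 in any Thy1- library.

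Cst6 had the opposite order. It was at 89.4, 258, 112 and 171 in Thy1hi cells and at 368, 386, 365 and 391 in Thy1- cells. Every Thy1hi library was below every Thy1- library, and the Thy1- libraries lay close together (378 ± 12.8, SD, n = 4) while the Thy1hi libraries spread widely (158 ± 75.3, n = 4). The log2 fold change was -1.37 (SE 0.45), and the same-numbered differences ran from -2.03 to -0.58.

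**Figure D4:**
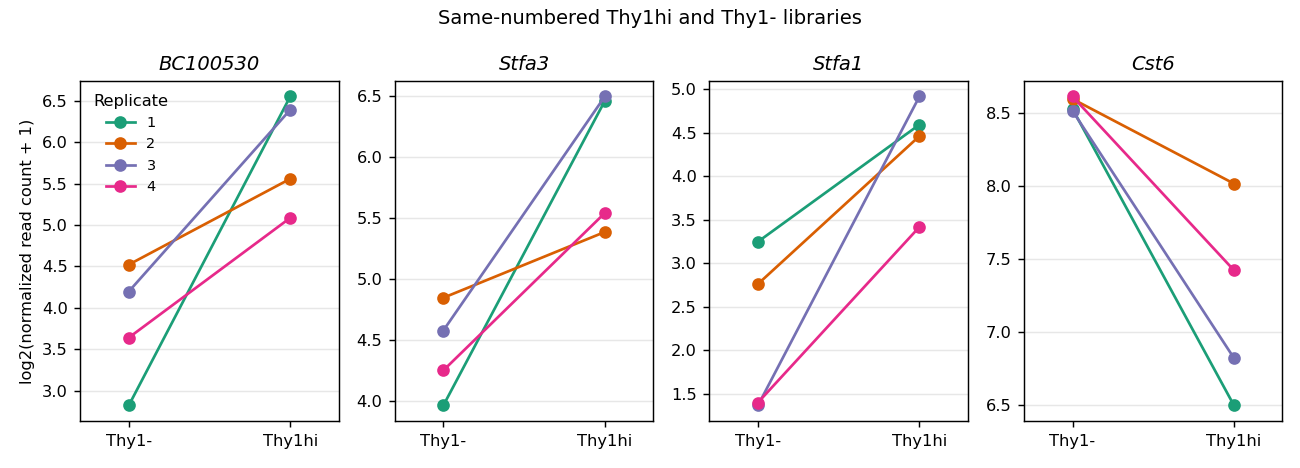
Log2(normalized count + 1) of BC100530, Stfa3, Stfa1 and Cst6 in the Thy1- and Thy1hi libraries, with lines joining the libraries of the same replicate number (1 to 4); each panel has its own vertical range. The 4 lines rise for the stefin A genes and fall for Cst6.

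Without a replicate block, limma called 58 of 17204 genes (0.337%) between Thy1hi and Thy1- cells, 0.116% higher and 0.221% lower in Thy1hi cells, and none of the 7 members. At an unadjusted limma p under 0.05, 7.22% of all genes passed, and 5 of the 7 members did (BC100530, Cst6, Stfa1, Stfa2 and Stfa3). Stfa2 was in the fit only through the YFP+ libraries and had at most 5 reads in any library of these populations. With edgeR and with DESeq2 on recovered reads, which called 0.256% and 1.22% of all genes, the members called were also 0. With the replicate number as a block in a fit of these populations alone, 1137 genes (6.61%) were called, and 4 of the 7 members were among them (BC100530, Stfa1, Stfa3 and Cst6). All libraries of Thy1hi cells were above those of Thy1- cells for 3.59% of all genes and below them for 3.17%. The Thy1hi libraries also held more basal keratinocyte transcripts, with a summed level of 183893 to 255461 against 86316 to 153184. Per 1000 counts of these 6 markers, the stefin A sum was 0.349 to 1.13 in Thy1hi and 0.209 to 0.724 in Thy1- cells, so on this scale the populations overlapped. On the same scale the YFP+ libraries, at 5.13 to 7.03, remained above all others. The summed differentiation markers were 34230 to 52552 in Thy1- cells and 11953 to 35910 in Thy1hi cells, and the summed upper follicle and sebaceous gland markers 12013 to 13062 and 6731 to 8310.

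Compared with HFSCs, Thy1hi cells had higher BC100530 and Stfa3 and lower Cst6. BC100530 was at 31.2, 10.9, 17.1 and 0.70 in HFSC replicates 1 to 4 and Stfa3 at 17.3, 40.2, 27.8 and 2.80. The highest HFSC value of either gene was just under the lowest Thy1hi value (33.0 and 40.8), and HFSC replicate 4 was far below the rest. The log2 fold changes were 2.52 (SE 0.82) and 1.89 (SE 0.62), and became 1.65 and 1.17 without HFSC replicate 4. Stfa1, at 10.4, 13.0, 3.21 and 2.80 in HFSCs, overlapped with Thy1hi cells (log2 fold change 1.52, SE 0.73). Cst6 was at 420, 652, 524 and 320 in HFSCs, above all Thy1hi libraries, with a log2 fold change of -1.67 (SE 0.45) in Thy1hi against HFSC libraries.

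In this comparison limma called 2300 genes (13.4%), 6.51% higher and 6.86% lower in Thy1hi cells, and 3 of the 7 members (BC100530 and Stfa3 higher, Cst6 lower in Thy1hi cells). Thy1hi libraries were all above HFSC libraries for 9.46% of all genes and all below for 9.81%. Without Thy1hi replicate 1, or without Thy1hi replicate 3, none of the members was called, and without HFSC replicate 4 only Cst6 was. Thy1- cells and HFSCs did not separate in any member. Their libraries overlapped in all 7 members that were fitted and none was called by limma, edgeR or DESeq2, nor was any at an unadjusted limma p under 0.05 (0 of 7, beside 23.7% of all genes). Over the table edgeR called 7.49% of genes, DESeq2 14%, and limma 1046 (6.08%), 2.56% higher and 3.52% lower in Thy1- cells, and 6.16% of all genes had every Thy1- library above every HFSC library and 7.42% below. For BC100530 and Stfa3 the small log2 differences (0.42, SE 0.82, and 0.33, SE 0.62, higher in Thy1- cells) turned to -0.45 and -0.39 without HFSC replicate 4, and also below 0 with edgeR and DESeq2.

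DETCs had the lowest mean stefin A sum, with 46.0, 21.4, 13.4, 1.37 and 31.2 in replicates 1, 2, 3, a and b, which overlapped with Thy1- and HFSC libraries. BC100530 was at 21.5, 6.10, 4.74, 0 and 1.2 and Stfa3 at 11.7, 13.2, 6.32, 1.37 and 16.8, both below all Thy1hi libraries. The log2 fold changes of Thy1hi over DETC libraries were 3.70 (SE 0.78) and 2.82 (SE 0.59). Stfa1, at 8.81, 1.02, 0.79, 0 and 13.2, overlapped with Thy1hi replicate 4 (log2 fold change 2.55, SE 0.69). Limma called 6289 genes (36.6%), 16.6% higher and 19.9% lower in Thy1hi cells, and 4 of the 7 members, with Cst3, BC100530, Stfa1 and Stfa3 higher in Thy1hi cells. Every Thy1hi library was above every DETC library for 14.4% of all genes and below for 18.8%. DETC replicate a, which had the fewest basal keratinocyte counts, had 1 stefin A read in all. Per 1000 basal keratinocyte marker counts, the stefin A sum of DETC libraries was 0.115 to 0.809, within the range of the other wild-type populations. The part of keratinocyte RNA in the stefin A reads of DETC libraries was not tested.

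**Figure D5:**
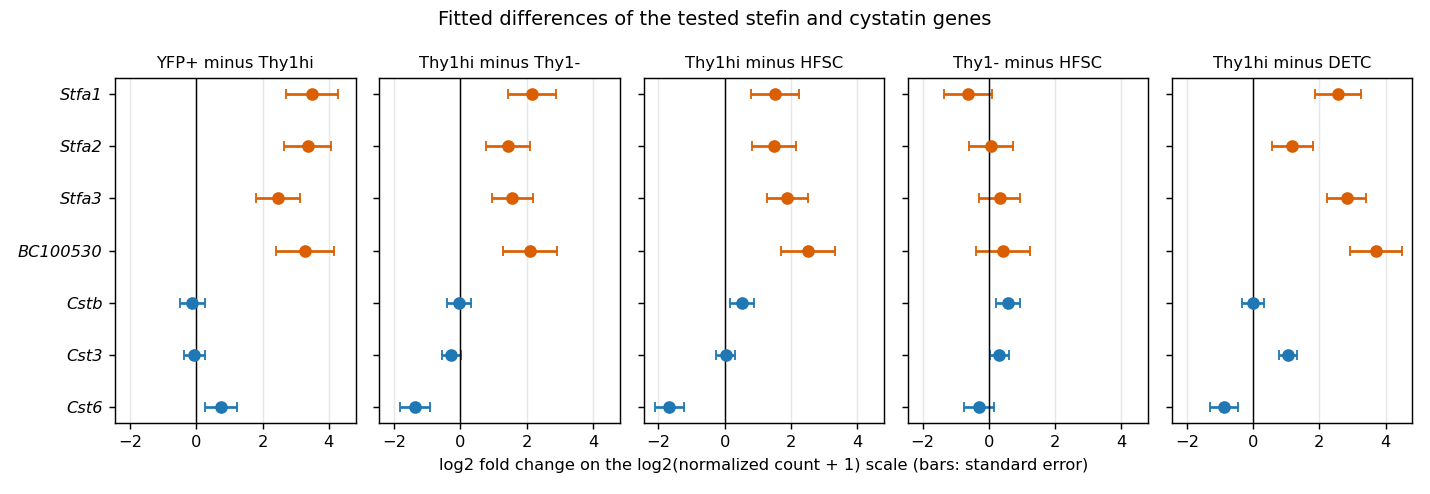
Fitted log2 fold changes of the 7 tested genes in 5 comparisons, with standard errors as bars; positive values are higher in the population named first. Stefin A genes (orange) lie at 2.47 to 3.5 in YFP+ minus Thy1hi and at -0.63 to 0.42 in Thy1- minus HFSC, and Cst6 is negative in Thy1hi against Thy1- and HFSC libraries.

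Stefin B and cystatin C followed another pattern from the stefin A cluster. Cstb overlapped in all 5 populations, with means between 170 ± 80.5 (SD, n = 4) in HFSCs and 227 ± 62.2 (n = 4) in Thy1- cells, and its lowest value, 52.6, in HFSC replicate 4. Its log2 fold change was -0.12 (SE 0.38) between YFP+ and Thy1hi cells and -0.05 (SE 0.35) between Thy1hi and Thy1- cells. Cst3 was at 764.6, 538 and 826 in YFP+, 816, 732, 586 and 797 in Thy1hi, 1050 down to 675 in Thy1- and 948 down to 391 in HFSC libraries, which all overlapped. In DETCs it was at 455, 449, 320.2, 179.7 and 432, below every Thy1hi library (log2 fold change of Thy1hi over DETC 1.06, SE 0.27). Per kilobase of exon, Cst3 was higher than any stefin A gene in Thy1hi cells, at 579 ± 82.3 (SD, n = 4) against 160 ± 63.4 for Stfa3, whereas in YFP+ cells Stfa3 (853 ± 187, n = 3) was above Cst3 (561 ± 120). Cst6, with its long annotated exons, was at 38.5 ± 18.4 per kilobase in Thy1hi and 117 ± 34.7 in HFSC libraries (n = 4 each).

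In YFP+ cells Cst6 was at 264, 427 and 132, which overlapped with Thy1hi cells (log2 fold change 0.76, SE 0.49), unlike the stefin A genes. In DETCs it was at 405, 412, 259, 76.8 and 413. Its order of means was HFSC, Thy1-, DETC, YFP+ and Thy1hi, with overlap between each pair of neighbours. Its log2 values had a Pearson r of -0.25 to -0.10 with the 4 tested stefin A genes over the 20 libraries.

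A further 2 genes of the stefin A type passed the filter. Gm5416 (chr16:36210403-36217788), named Csta3 by RefSeq, lies inside the stretch of the members. It was at 20.9, 20.9 and 18.8 in YFP+ cells and at most 3.95 in any other library, and like Stfa2 it passed the filter only through the YFP+ group. Csta1 was at 88.7, 118 and 39.6 in YFP+ and at 12.1, 30.3, 16.3 and 19.4 in Thy1hi cells, without overlap, but HFSC, DETC and Thy1- libraries reached 79.3, 104 and 71.7. For Gm5416 the log2 fold change of YFP+ over Thy1hi cells was 2.89 (SE 0.67), and no test is given. Limma did not call Csta1 in this comparison (adjusted p = 0.524, log2 fold change 1.96, SE 0.88). Between Thy1hi and Thy1- cells Csta1 went the other way from BC100530, Stfa1 and Stfa3, with means of 19.5 and 43.7 and overlapping libraries. Its log2 fold change there was -1.06 (SE 0.82). The limma adjusted p was 0.0493 with the replicate block, beside 6.61% of all genes called, and 0.969 without the block. Of 20 other cystatin genes listed, 18 were in the table and 3 were tested. The third, Cst7, a cystatin of cytotoxic lymphocytes, was at 157 to 287 in DETCs and at most 6.93 elsewhere (log2 fold change of Thy1hi over DETC -6.85, SE 0.68), and as it passed the filter only through the DETC libraries it had to differ there.

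The cysteine proteases that these inhibitors bind, 11 genes listed and 11 tested, were compared in the same fit. None was called between YFP+ and Thy1hi cells with limma. Ctsb, the most abundant of them, was at 2084, 1567 and 2738 in YFP+ and 1755, 1478, 1564 and 1678 in Thy1hi cells (adjusted p = 0.773, log2 fold change 0.36, SE 0.30). Ctsl, a target of Cst6, was at 546, 671 and 522 in YFP+ and 355 to 525 in Thy1hi cells (adjusted p = 0.833, log2 fold change 0.47, SE 0.50). The median log2 fold change of the 11 proteases was -0.18, beside -0.04 over all genes tested. Ctsk was listed at 0 in the 3 YFP+ libraries and at 3.25 to 15.5 in Thy1hi cells (adjusted p = 0.143).

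Between Thy1hi and Thy1- cells none of the 11 proteases was called without the block. Lgmn, the legumain gene and a target of Cst6, was at 380, 390, 358 and 124 in Thy1hi and 300.4, 231, 145 and 102 in Thy1- cells, higher in 4 of 4 same-numbered pairs, with an adjusted p of 0.0459 in the blocked limma fit and 0.884 without the block (log2 fold change 0.66, SE 0.41). Against HFSCs, 1 protease was called higher in Thy1hi cells, Lgmn (limma adjusted p = 0.0151, log2 fold change 1.55, SE 0.41), beside 6.51% of all genes called higher and 6.86% lower. Lgmn was at 84.3, 132.5, 117.6 and 65.9 in HFSC replicates 1 to 4, which overlapped with Thy1hi replicate 4. Its inhibitor Cst6 was lower in Thy1hi cells, as given above, and a link between them was not tested. The cathepsins Ctsf (adjusted p = 0.000233, log2 fold change -1.51, SE 0.24) and Ctsz (adjusted p = 0.0324, log2 fold change -1.67, SE 0.51) were lower in Thy1hi cells than in HFSCs by limma. Between Thy1- cells and HFSCs only Ctsf was called (adjusted p = 0.025, limma, log2 fold change -0.93, SE 0.24).

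DETCs and Thy1hi cells differed in 6 of the 11 proteases. Ctsw, a cathepsin of cytotoxic lymphocytes, was at 550 to 1033 in DETCs and 4.42 to 24.2 in Thy1hi cells (limma adjusted p = 1.23e-06, log2 fold change -6.37, SE 0.76). Ctsc, which activates granzymes, and Ctsz were also higher in DETCs (limma adjusted p = 2.76e-06 and 0.00131, log2 fold changes -2.32, SE 0.30, and -2.14, SE 0.48). Ctsb, Ctsh and Lgmn were higher in Thy1hi cells (limma adjusted p = 0.000997, 0.00467 and 0.000185, log2 fold changes 1.21, 1.32 and 2.15). Thus 3 of 11 proteases were called in each direction, beside 36.6% of all genes called.

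Other protease inhibitors of the epidermis were compared in the same fit. Of 17 listed genes of the clade B serpins and the Ctla2 inhibitors, 13 were tested, and none was called between YFP+ and Thy1hi or between Thy1hi and Thy1- cells without the block. With the block, Serpinb6a was higher and Serpinb8 lower in Thy1hi than in Thy1- cells (limma adjusted p = 0.0325 and 0.0431, log2 fold changes 0.57 and -0.56), beside 6.61% of all genes called. Serpinb2, the inhibitor PAI-2 of keratinocytes, was higher in Thy1hi cells than in HFSCs (limma adjusted p = 0.011, log2 fold change 2.12, SE 0.54), and Serpinb11 and Serpinb8 were lower (adjusted p = 0.00951 and 0.0334, log2 fold changes -3.86 and -1.15). Against DETCs, 5 of the 13 were called higher in Thy1hi cells and 3 lower, beside 16.6% of all genes called higher and 19.9% lower. Among the higher ones was Serpinb5, the keratinocyte serpin maspin (log2 fold change 1.74, SE 0.31, limma adjusted p = 0.00013). The lower ones were Serpinb9, an inhibitor of granzyme B (log2 fold change -5.84, SE 0.56), Ctla2a, and Ctla2b, which passed the filter only through the DETC libraries and so had to differ.

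Of 4 listed transglutaminases, the enzyme family that cross-links the cornified envelope, none was called in YFP+ against Thy1hi cells. Tgm1 had means of 265 in YFP+ and 110 in Thy1hi cells without overlap (limma adjusted p = 0.506, log2 fold change 1.28, SE 0.56). Tgm3 was higher in Thy1hi than in Thy1- cells in the blocked limma fit, with means of 209.7 and 58.1, and Tgm1 and Tgm5 were lower (adjusted p = 0.00169, 0.0133 and 0.042, and 0.12, 0.801 and 0.494 without the block). The blocked fit called 6.61% of all genes. Tgm5, a transglutaminase of differentiating keratinocytes, was at a mean of 1583 in HFSCs and 67.7 in Thy1hi cells (limma adjusted p = 2.05e-08, log2 fold change -4.58, SE 0.31).

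The tested genes most like each member were ranked by Pearson r of log2(normalized count + 1) over the 20 libraries, as a description and without a test. For the stefin A sum these were Rps6ka4 (0.938), Ces2g (0.926), Mmp3 (0.924), Hmgn2 (0.923) and Twf1 (0.919). BC100530 was closest to Cox5a (0.949) and Pdpn (0.936), Stfa3 to Il24 (0.928) and Twf1 (0.928), Stfa1 to Tspan3 (0.897) and Rps6ka4 (0.895), and Stfa2 to its cluster neighbour Gm5416 (0.891). Stfa2 and Gm5416 both passed the filter only through the YFP+ libraries, so their r was bound to be high and nothing is read from it. Cst6 was closest to Krt79 (0.905), a keratin of the upper hair follicle, and to Alox12e (0.887). Among the genes most like Cst3 were Rps15 (0.942), a gene of a ribosomal protein, and Perp (0.942), a gene of desmosomal adhesion, and Cstb was closest to Snhg12 (0.862) and Rpl10 (0.843). All these values share the same libraries and their differences between populations.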

How the data were processed

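Sorted dorsal epidermal cells were profiled by RNA-seq. Per the file headers and the study's methods, the deposited signal is read counts per Ensembl gene that the authors obtained with STAR on mm10 and featureCounts and divided by a DESeq2 size factor per library (0.729 to 1.43), rounded to 2 decimals. The submitters' processing notes name STAR, featureCounts and mm10. Libraries were made in 2 batches with different kits, and the batch of each library is not given in the sources used here. The column names of 2 DETC libraries match no label number, and they are named a and b.

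Values of Thy1- replicate 4 followed gene names sorted without hyphens. Putting 3212 genes back raised the correlation with the other Thy1- libraries from 0.0606 to 0.932 at 1153 expressed moved genes, and 56 moved genes stay ambiguous, none of them a member. Whole reads were recovered for at least 99.98% of the values above 0 (tolerance 0.02). Read counts thereby support floors of 3 reads, which cover counting error only. Replicates differed by far more than sampling noise (chi-square per gene at least 8.95).

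Differences were fitted with limma 3.58.1 (R 4.3.3, lmFit and eBayes with trend, two-sided) on log2(value + 1), with all 20 libraries, 1 mean per population and no covariate. Benjamini-Hochberg adjustment covered the 17204 genes that reached 10 in 3 or more libraries, with a threshold of 0.05. The unit is a normalized value, so a fold change of a low gene is understated. Same-numbered Thy1hi and Thy1- libraries deviated together (r 0.293 to 0.716 in 4 pairs, -0.651 to 0.514 in 12 others), and the replicate number was therefore also used as a block. The members and lists were chosen with earlier results of these data known. The text names all members, the listed proteases, inhibitors and transglutaminases, and the tested non-member genes most alike by Pearson r (5 were ranked per member, not all of which are reported here).

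Alternatives were a pseudocount of 0.1 or 10, all genes without filtering, only genes averaging 50 or more, rescaled totals, quantile normalization, edgeR 4.0.16 and DESeq2 1.42.0 on recovered reads, fits of 2 populations, replicate blocks, the deposited row order and each library left out. Group means without HFSC replicate 4, Thy1- replicate 2 or DETC replicate 1 were added after the data were seen. Exon lengths and transcripts came from GENCODE M21 (GRCm38), in which 50567 of the 53380 genes have the same identifier and span. Promoters came from RefSeq GRCm38.p6, with entries for 6 of 9 members, and were aligned with Biopython 1.88. Scripts were tested on simulated data with known changes. For the limma fit these data had the same dispersion for every gene, no pairing, and changes only in genes above a minimum mean. The simulation therefore does not show how the fit performs at the low counts and replicate spread of these libraries. Other assays of the study were not analysed here.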

Additional observations from a re-analysis of the deposited data

Results flagged for a closer look

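In populations of 4 or 5 libraries, 1 library was flagged where its gap to the next took up most of the range of the group. This was checked in 30 combinations of gene and population, and chance alone flags about 1 in 20. Stfa2 was at 0 in Thy1hi replicate 4, against 3.95 to 4.42 in the other Thy1hi libraries, a difference of 3 to 5 reads. BC100530 was at 21.5 in DETC replicate 1 and at most 6.10 in the other DETC libraries. The DETC mean of BC100530 was 6.71 with all libraries and 3.01 without this one. BC117090 was at 5.79 in Thy1- replicate 2, from 5 reads, and at most 0.82 in the other Thy1- libraries, and its Thy1- mean without this library was 0.273. This is also the library that held the single Stfa2l1 read.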

How the results depend on the processing

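Over the alternatives, 676 values of the log2 fold changes of members stayed within the spread between libraries and 14 moved further. None of the 14 changed sign, and the sign changes among the others were those of differences that were small beside their SE. Between Thy1hi and Thy1- cells, 58 genes were called by limma. The count was 34 with rescaled totals, 210 with DESeq2, 95 with only the 2 populations, 216 with a replicate block over all populations, 1137 with the replicate block of the 2 populations, and 13 to 38 with each library left out, all 8 of which lowered it by over 1.5 times. The listed proteases and inhibitors called there went from 0 to 1 with DESeq2, with only the 2 populations and with the replicate block over all populations, and to 7 with the replicate block of the 2 populations. Between Thy1hi cells and HFSCs the 2300 genes became 3799 and 1369 under these replicate blocks (1549 to 2582 with a library left out), and the 8 listed genes became 13 with the first block and 4 to 9 with a library left out, with 4 without Thy1hi replicate 1 and 5 without Thy1hi replicate 3. Between Thy1- cells and HFSCs the 1046 genes became 2402 with DESeq2, 640 with only the 2 populations, 2701 and 329 under the replicate blocks, and 511 to 1965 with a library left out, the 4 Thy1- libraries each moving it by over 1.5 times. The 3 listed genes there became 1 without a filter, 6 with DESeq2, 9 and 1 under the replicate blocks, and 1 to 4 with a library left out, with 1 without Thy1- replicate 1, 2 or 3. Between YFP+ and Thy1hi cells the 2 genes called became 25 with a pseudocount of 10, 0 with rescaled totals, 6 with quantile normalization, 102 with DESeq2, 16 with only the 2 populations, 161 and 9 under the replicate blocks, and 0 to 4 with a library left out, with 0 without YFP+ replicate 1, Thy1hi replicate 1 or Thy1hi replicate 2, 1 without YFP+ replicate 3 or Thy1hi replicate 4, and 4 without YFP+ replicate 2. The 0 listed genes there became 1 with a pseudocount of 10, with quantile normalization and with the replicate block over all populations. The causes were not tested. Outside Thy1hi against Thy1- cells, same-numbered libraries did not deviate together (r -0.232 to 0.333 over the 4 other comparisons), so the replicate block there rests on a shared number only.

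Low counts limit Stfa2, BC117090 and Stfa2l1, the last 2 of which were not fitted. Stfa2 in Thy1hi over Thy1- libraries had a log2 fold change of 1.43 with a pseudocount of 1, 3.04 with 0.1 and 0.32 with 10. With a pseudocount of 10, that of Stfa1 in the same comparison went from 2.15 to 1.08, and in Thy1hi over DETC libraries that of Stfa1 went from 2.55 to 1.10 and that of BC100530 from 3.70 to 2.18. In the deposited row order, the log2 fold change of BC100530 between Thy1hi and Thy1- cells was 3.01 in place of 2.10.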
